A study of Danio rerio with 12 samples.

Results

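The genes described here are 50 short, single-exon genes that were counted in zebrafish brain RNA. They were chosen by structure and level from the 32057 genes of the count table. Each has 1 exon and a length under 300 bp, lies outside the mitochondrial genome, outside the 10 Mb on either side of *psen2* on chromosome 1 and outside chromosome 4 above position 27000000, and exceeded 1.5 CPM (counts per 1000000 counts of a fish) in 4 or more of the 12 fish. Structure and position alone fitted 2782 genes. Reads were counted for 249 of these, and the CPM limit left the 50. Levels therefore helped to choose them: 9 of the 50 passed 1.5 CPM in no WT fish and are members only through mutant fish, so counts over the 50 are given as descriptions.

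RNA was taken from whole brains of 12 female zebrafish aged 6 months, with 1 library per fish. The tissue and age are those of the labels and methods, although the extraction note in the labels speaks of larvae that were pooled. They belonged to a single family, bred from a pair of heterozygotes and raised together. Per the labels, 4 fish were *psen2*+/+ (WT), 4 were *psen2*S4Ter/+ (Het) and 4 were *psen2*S4Ter/S4Ter (Hom). *S4Ter* is a CRISPR Cas9 frameshift allele on the Tübingen background that places a stop codon near the start of *psen2*, so the results concern a single allele in a single family. Total counts were 11878943 to 17026801 per fish. Counts of *psen2* were 222 to 245 in WT fish, 182 to 235 in Het fish and 190 to 216 in Hom fish, and do not separate its alleles. The matched markers of neurons (2 of 7 listed) summed to 1280 to 1720 CPM in WT fish, 808 to 1050 in Het fish and 939 to 1100 in Hom fish, and the part of that difference in the results was not tested. Those of oligodendrocytes (5 of 5) summed to 6020 to 10800 CPM over the 12 fish and those of pituitary (2 of 3) to at most 2.76. The eye marker (1 of 2) ranged from 0.197 to 30.3 CPM and those of muscle (2 of 2) from 0.587 to 17.6. All these sums are CPM of all counts. Mitochondrial rRNA took 17.9% to 26.4% of those counts in WT and 31.3% to 35.5% in mutants, which lowers the CPM of other genes in mutants. In whole brain, fewer cells of a type and less RNA per cell cannot be told apart.

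Small stable RNAs act with protein partners rather than as messengers. Small nuclear RNAs (snRNAs) form the core of the spliceosome, with a major set for most introns and a minor set for a rare class of introns. Small nucleolar RNAs (snoRNAs) of the box C/D class guide methylation of rRNA and those of the box H/ACA class guide its pseudouridylation, and in vertebrates most are cut out of the introns of host genes. Signal recognition particle (SRP) RNA is the scaffold of the cytoplasmic particle that directs secretory proteins to the endoplasmic reticulum, and RNase P and RNase MRP contain the RNAs that cleave tRNA and rRNA precursors.

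By symbol, only 18 of the 50 genes belong to the spliceosomal and nucleolar classes, so the set is not named for them here. These are 4 major spliceosomal RNAs (U2, U4 and 2 copies of U5), 4 minor spliceosomal RNAs (U11, listed as snrnau11, U12, rnu4atacb and rnu6ataca), 6 box H/ACA snoRNAs (4 copies of SNORA73, SNORA70 and SNORA23) and 4 box C/D snoRNAs (2 copies of SNORD15, SNORD21 and SNORD97). A further 13 are SRP RNA genes, namely rn7sl1 on chromosome 3 and 12 copies on chromosome 11. RNaseP_nuc is named for the RNA of RNase P, and rmrp is the RNA of RNase MRP. The remaining 17 are 2 genes with clone names and 15 with no symbol, which are called by their identifiers. A fragment was counted only where it lay inside the gene along its whole length, so these genes were counted only from fragments no longer than themselves.

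Values per fish are given below in the order WT 79, 86, 88 and 95, then Het 80, 81, 84 and 89, then Hom 78, 82, 83 and 85. Unless they are called counts they are CPM after TMM scaling over the 16021 genes tested. A gene is called DE (differentially expressed) where its Bonferroni-adjusted p lies below 0.01, and also where its logFC (log2 fold change) is beyond 1 in size and its FDR below 0.01. For the mutant allele, the mean of Het and Hom was compared with WT.

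**Figure D1:**
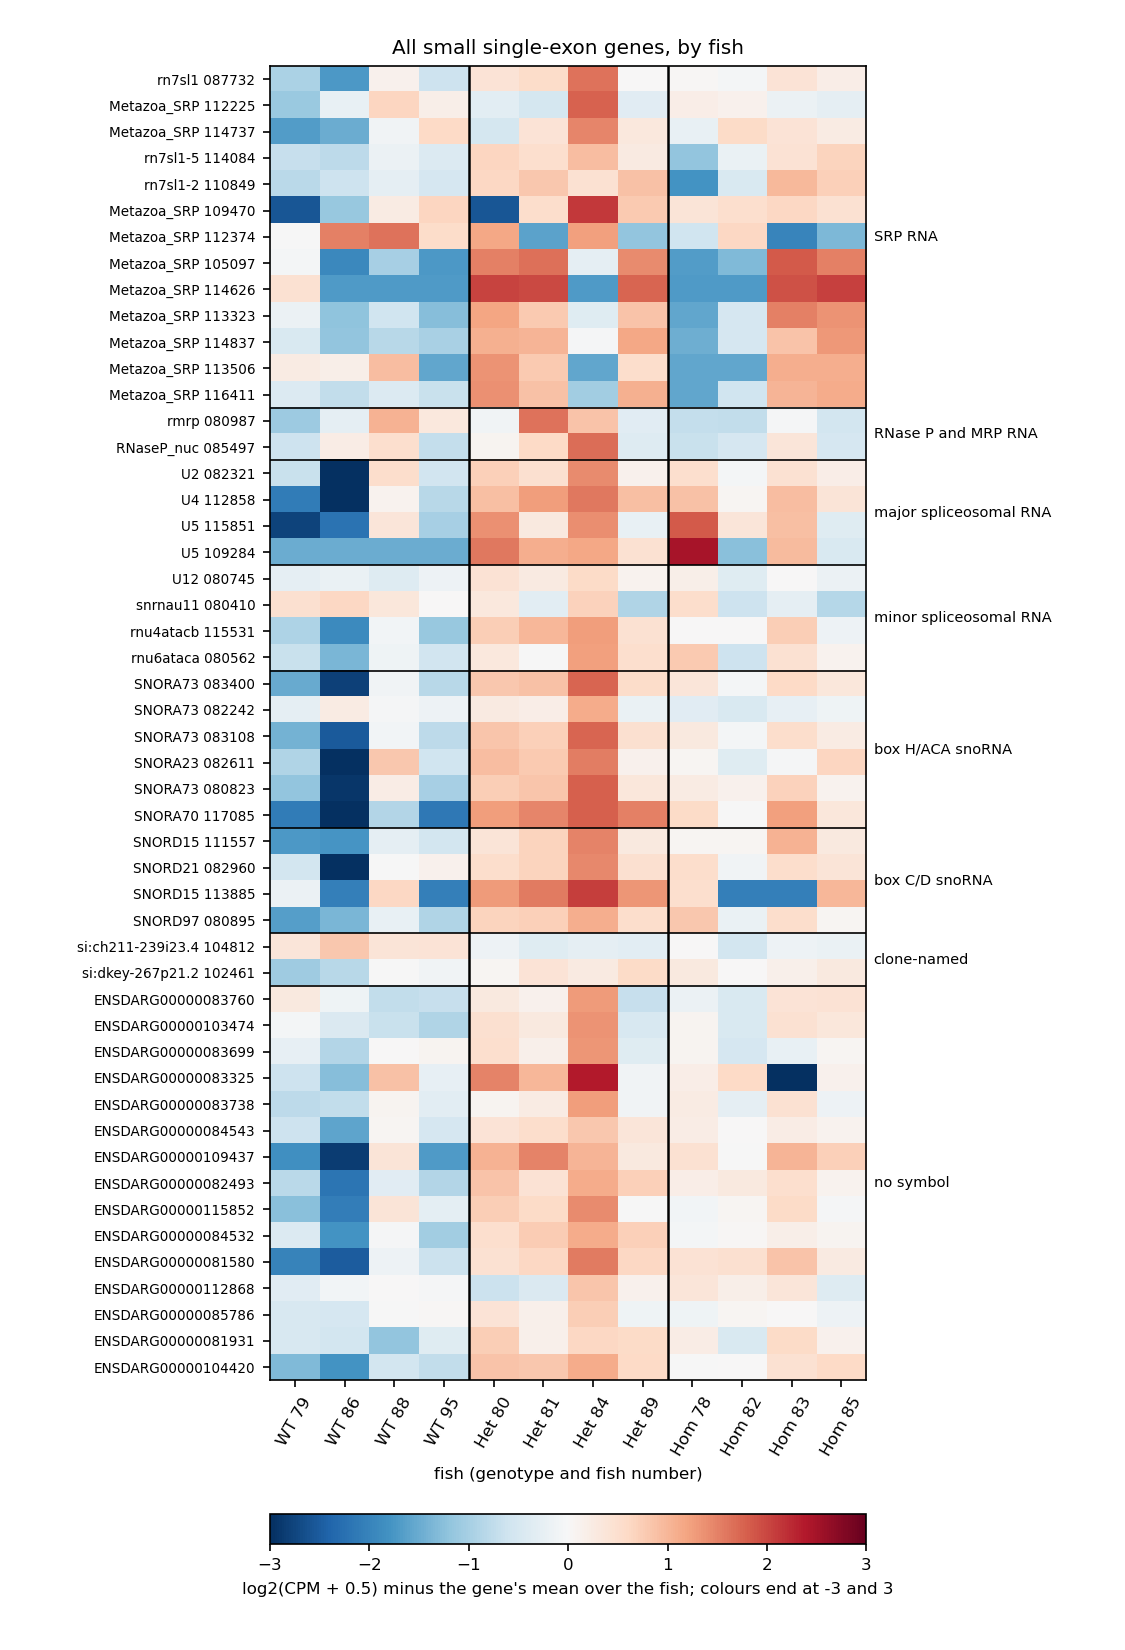
Levels of the 50 genes in each of the 12 fish, as log2(CPM + 0.5) minus the mean of the gene over the fish, with 1 row per gene, 1 column per fish and genes grouped by class. Het 84 holds the highest value of 35 genes and WT 86 the lowest of 22, whereas snrnau11, the SNORA73 copy ENSDARG00000082242 and si:ch211-239i23.4 are not low in WT 86.

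For the mutant allele, 10 of the 50 genes rose and none fell, where the same rule called 2.53% of all 16021 genes (1.53% higher and 1% lower). The logFC was above 0 for 46 of the 50, against 51.9% of all genes, and its median was 1.14 against 0.02 for all genes tested. That median is also 1.14 with the U5 copy that had 0 counts in WT set at its lower bound. In Het against WT, 11 rose and none fell (3.17% of all genes called, 2.09% higher), 47 had a logFC above 0 (51.1% of all genes) and the median was 1.42. In Hom against WT, 1 rose and none fell (1.11% of all genes called, 0.618% higher), 43 had a logFC above 0 (52.5% of all genes) and the median was 0.82. These last 2 comparisons share the WT fish. Among the 22 genes over 1.5 CPM in all 4 WT fish, which did not need the mutants to be members, 3 rose for the mutant allele and the median logFC was 0.74. The other 28, which hold 7 of the 10 called genes, became members with the help of mutant fish.

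The fish differed as a whole in these genes. The median deviation of the 50 from their mean over all fish, on the log2 scale, was -0.68, -1.37, -0.03 and -0.61 in the WT fish, 0.65, 0.60, 1.23 and 0.36 in Het, and 0.13, -0.09, 0.46 and 0.20 in Hom. No mutant fish other than Hom 82 lay below the highest WT fish, WT 88. Among WT fish these values stood in the same order as the share of counts from mitochondrial rRNA, which was 18.9%, 17.9%, 26.4% and 23.9% in WT and 31.3% to 35.5% in mutants. Genes under 500 bp other than the 50 took 1.21% to 2.66% of the nuclear counts in WT and 1.84% to 4.77% in mutants, with Het 84 the highest. A single RNA, rn7sk (the 7SK RNA, 322 bp, mean of 11360 CPM of all counts), makes up much of that share. It is therefore not a measure of short genes in general. The part of the mitochondrial rRNA share in the results below was not tested. Its WT and mutant values did not overlap, so it cannot be told apart from genotype. The part of the share of short genes was not tested, other than by the scaling for length given further on.

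A single gene dominated the counts of the 50. rn7sl1, an SRP RNA gene, took 2.48%, 1.43%, 4.76% and 2.87% of all counts in WT, 5.24%, 5.39%, 10.4% and 4.09% in Het, and 4.02%, 3.95%, 5.05% and 4.60% in Hom. It made up 88.8% to 95.7% of the counts of the 50 in each fish. By share, the highest WT fish lay above 4 of the 8 mutants, and the logFC of 1.12 ± 0.34 (SE) was not called (edgeR quasi-likelihood test, FDR = 0.0237). The largest share, in Het 84, was 10.4% (95% Wilson interval 10.38% to 10.41%, counting error only).

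The other SRP RNA genes form a cluster on chromosome 11 between positions 11383833 and 16127678 (GRCz11). None of the 13 SRP RNA genes was called in any comparison. For the mutant allele, 12 of them had a logFC above 0 (median 1.1), against 51.9% of all genes. Among them, 5 copies named Metazoa_SRP, spread over 787.8 kb, were high in the same 5 fish: Het 80, 81 and 89, and Hom 83 and 85. For ENSDARG00000114626 the counts were 17, 0, 0 and 0 in WT, 66, 64, 0 and 55 in Het, and 0, 0, 58 and 71 in Hom. For ENSDARG00000105097 they were 16, 1, 7 and 2, then 63, 70, 12 and 61, then 2, 4, 77 and 67. In each of these copies the 5 fish had more counts than any of the other 7, so both mutant genotypes held high and low fish. The 5 copies were put together after their values had been seen. Over the 12 fish the log2 levels of the other 4 copies had r of 0.911 to 0.972 with ENSDARG00000105097, which restates the choice. The values were 0.85 for rn7sl1-2, 0.753 for rn7sl1-5 and 0.718 for ENSDARG00000113506, all on chromosome 11, and 0.474 for rn7sl1. The remaining copies on chromosome 11 lay below rn7sl1. They had 0.182 (ENSDARG00000114737), -0.0444 (ENSDARG00000109470), -0.339 (ENSDARG00000112225) and -0.648 (ENSDARG00000112374).

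**Figure D2:**
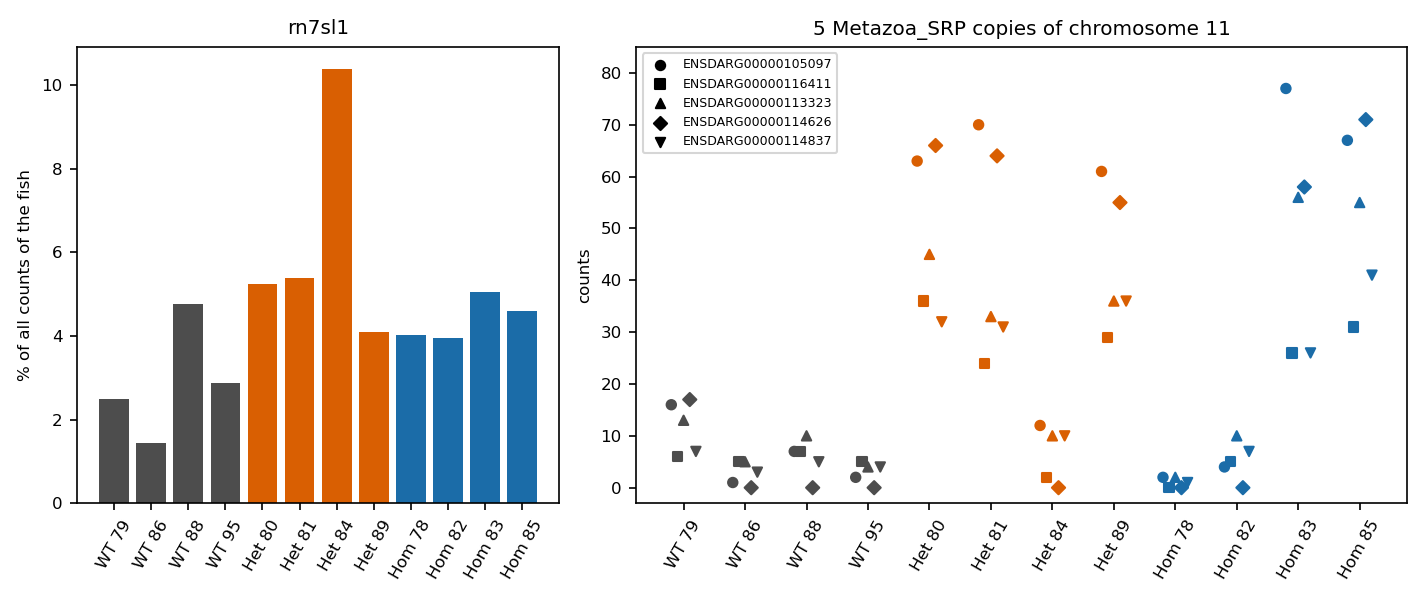
Left, the share of all counts of each fish that came from rn7sl1. Right, the counts of 5 Metazoa_SRP copies on chromosome 11 in each fish, coloured grey for WT, orange for Het and blue for Hom. rn7sl1 reaches 10.4% in Het 84, where ENSDARG00000114626 has 0 counts, and the 5 copies are high together in Het 80, 81 and 89 and Hom 83 and 85.

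A further copy had a logFC below 0 and did not pass the test. Metazoa_SRP ENSDARG00000112374 had 18, 81, 78 and 34 counts in WT, 51, 3, 46 and 6 in Het, and 11, 33, 1 and 5 in Hom (logFC -1.35 ± 0.69, SE, FDR = 0.147). Its 4 lowest fish, Het 81, Het 89, Hom 83 and Hom 85, were among the 5 in which the other copies were high. All of these copies are 297 or 298 bp long and may share reads with each other and with rn7sl1, so the count of a single copy is uncertain.

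Neither RNaseP_nuc nor rmrp was called. A more abundant RNA of RNase P, rpph1, lies outside the length limit (means of 1021 CPM of all counts for rpph1 and 77.65 for RNaseP_nuc). RNaseP_nuc had 64.6, 117, 142 and 60.9 CPM in WT, 105, 151, 322 and 76.4 in Het, and 62.4, 70.0, 130 and 70.0 in Hom. rmrp had 307, 543, 1362 and 822 in WT, 615, 2039, 1202 and 520 in Het, and 401, 394, 647 and 447 in Hom. The groups overlapped for both, with logFC of 0.28 (FDR = 0.582) and -0.08 (FDR = 0.896).

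Of the 4 major spliceosomal RNAs, 1 copy of U5 was called (2.53% of all genes were called). U5, which holds the exons in place for joining, is represented by 2 copies on chromosome 20. ENSDARG00000109284 (position 16427790 to 16427905) had 0 counts in every WT fish, 40, 27, 24 and 16 in Het, and 76, 1, 23 and 6 in Hom. Against a floor of 3 counts per WT library (a mean of 0.265 CPM on the TMM scale), the 8 mutant fish averaged at least 9.69-fold higher (edgeR quasi-likelihood test, FDR = 0.00719 for the mutant allele). It is a member only through mutant fish, and Hom 82, with 1 count, lay under that floor. The other copy, ENSDARG00000115851, had 0, 3, 45 and 14 counts in WT, 89, 40, 77 and 27 in Het, and 121, 41, 61 and 25 in Hom, and was not called (logFC 2.10 ± 0.74, SE, FDR = 0.0422). The copies may share reads.

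U4, which holds U6 inactive until the spliceosome is assembled, had 3.06, 0.388, 15.8 and 8.03 CPM in WT, 27.8, 35.8, 45.0 and 27.6 in Het, and 27.4, 15.3, 28.1 and 19.4 in Hom. Its highest WT fish overlapped only Hom 82, and its logFC of 2.02 ± 0.54 (SE) missed the threshold (FDR = 0.0125). U2, which pairs with the branch point, had 251, 44.8, 573 and 268 CPM in WT, 658, 553, 1074 and 436 in Het, and 563, 383, 547 and 459 in Hom. WT 88 lay within the mutant range and the U2 logFC was 1.02 ± 0.46 (SE, FDR = 0.0995).

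Of the 4 minor spliceosomal RNAs, 1 was called (2.53% of all genes were called). rnu4atacb, the U4atac RNA, rose for the mutant allele (logFC 1.54 ± 0.33, SE, FDR = 0.00407). It had 3.26, 1.40, 6.27 and 2.76 CPM in WT, 11.4, 13.8, 16.5 and 9.35 in Het, and 6.71, 6.78, 11.5 and 5.90 in Hom, so that WT 88 overlapped Hom 85. rnu6ataca, the U6atac RNA, had 0.931 to 2.87 CPM in WT and 1.91 to 8.16 in mutants, with a logFC of 1.22 (FDR = 0.0205).

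U11 and U12, which recognise the ends of minor introns as a joint particle, had logFC of opposite sign. U11 (snrnau11, chromosome 19, 16061826 to 16061961) had 64.3, 70.0, 58.0 and 46.4 CPM in WT, 56.5, 36.3, 74.2 and 24.1 in Het, and 65.7, 29.5, 37.6 and 25.2 in Hom (logFC -0.46 ± 0.28, SE, FDR = 0.226). U12 had 48.8, 51.3, 45.1 and 53.1 in WT, 80.2, 70.7, 87.97 and 63.2 in Het, and 66.5, 45.4, 59.1 and 52.3 in Hom (logFC 0.39 ± 0.12, SE, FDR = 0.0204). Neither was called, although U12 lay higher in all Het fish than in any WT fish. The ratio of U11 to U12 counts within a fish, which does not depend on scaling, was 1.32, 1.36, 1.29 and 0.873 in WT, 0.705, 0.514, 0.843 and 0.380 in Het, and 0.988, 0.649, 0.637 and 0.482 in Hom. Only Hom 78 among the mutants exceeded the lowest WT fish, WT 95. The ratio was chosen after its values had been seen, and it is given without a test.

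**Figure D3:**
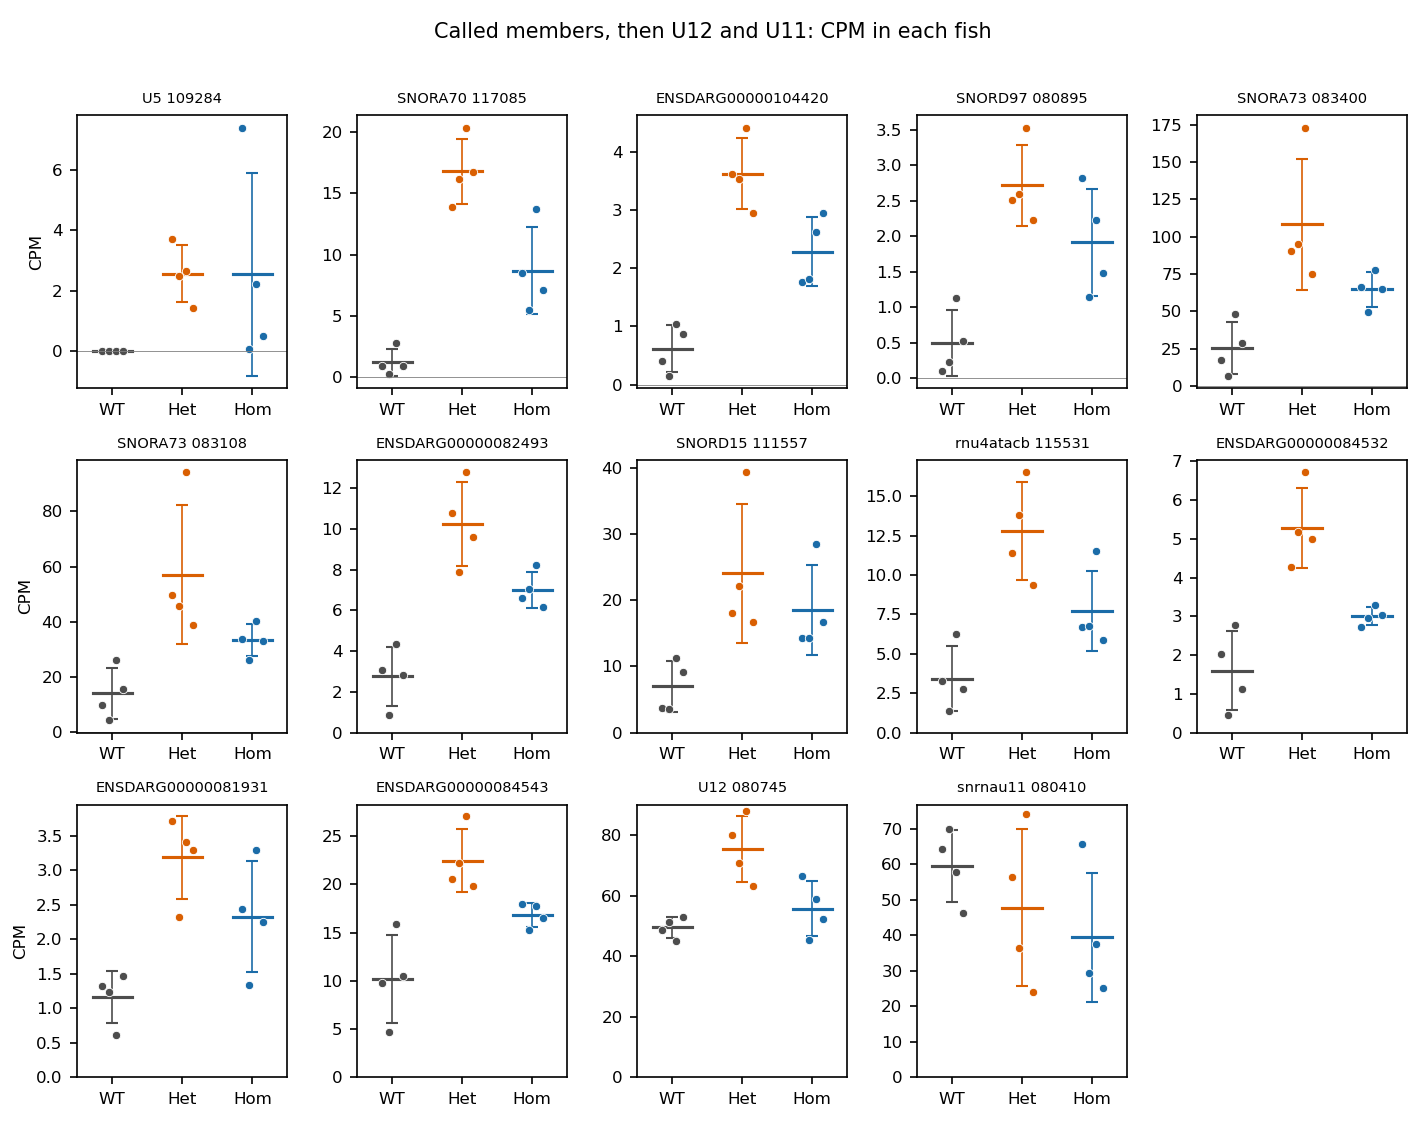
CPM of the 12 members called DE in any comparison with WT, followed by U12 and snrnau11, with 1 point per fish, a line at the mean of each genotype and bars of 1 SD (n = 4 fish). The Het mean is the highest in every panel except that of snrnau11, whose highest mean is in WT, and the U5 copy ENSDARG00000109284 is at 0 in all WT fish.

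The 6 box H/ACA snoRNAs included 3 that rose, and none fell (1.53% of all genes were called higher). Besides SNORA70, these are SNORA73 copies within a single host gene, which may share reads and are not separate results. SNORA70 (chromosome 23, 19713095 to 19713228), a guide RNA within an intron of the ribosomal protein gene *RPL10*, showed the largest logFC among members with counts in WT. It had 0.917, 0.233, 2.79 and 0.863 CPM in WT, 13.9, 16.2, 20.4 and 16.7 in Het, and 8.47, 5.44, 13.7 and 7.12 in Hom. Every mutant fish lay above every WT fish, and the logFC was 3.33 ± 0.43 (SE, FDR = 0.000547). It was 3.81 in Het (FDR = 0.00114) and 2.86 in Hom (FDR = 0.00446), and SNORA70 was the only member called in Hom. It passed 1.5 CPM in 1 WT fish and all 8 mutants, so it met the limit of 4 fish only through the mutants.

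SNORA73, a box H/ACA RNA that in yeast and vertebrates takes part in cleaving the precursor of small subunit rRNA, has 4 copies in introns of *RPS7* on chromosome 20. ENSDARG00000083400 had 17.5, 6.90, 47.8 and 28.7 CPM in WT, 90.4, 95.3, 173 and 74.8 in Het, and 66.4, 49.5, 77.5 and 65.2 in Hom (logFC 1.73 ± 0.39, SE, FDR = 0.00564). ENSDARG00000083108 rose with a logFC of 1.62 ± 0.38 (SE, FDR = 0.00611), with 4.42 to 26.3 CPM in WT and 26.3 to 94.1 in mutants. Every mutant fish lay above every WT fish for both, although for the latter WT 88 and Hom 82 were nearly equal. ENSDARG00000080823 had 0.543 to 8.71 CPM in WT and 7.99 to 26.5 in mutants and was not called (logFC 1.61, FDR = 0.0199).

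The fourth copy, ENSDARG00000082242, was not called. It had 27.9, 40.4, 33.0 and 30.4 CPM in WT, 40.9, 38.8, 73.5 and 29.3 in Het, and 26.8, 24.4, 28.4 and 30.7 in Hom (logFC 0.10 ± 0.20, SE, FDR = 0.711). As a share of the SNORA73 counts of a fish it took 47.7%, 77.3%, 28.5% and 38.7% in WT, and 20.4% ± 1.58 (SD, n = 8) in mutants, with a mutant maximum of 22.6%. The shares of WT and mutant fish did not overlap. In contrast, the counts of ENSDARG00000083400 and ENSDARG00000083108 kept a ratio between 1.56 and 2.07 in all 12 fish. The copies are similar in length (220 or 221 bp) and may share reads. These shares, too, were formed after the values had been seen and are given without a test.

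**Figure D4:**
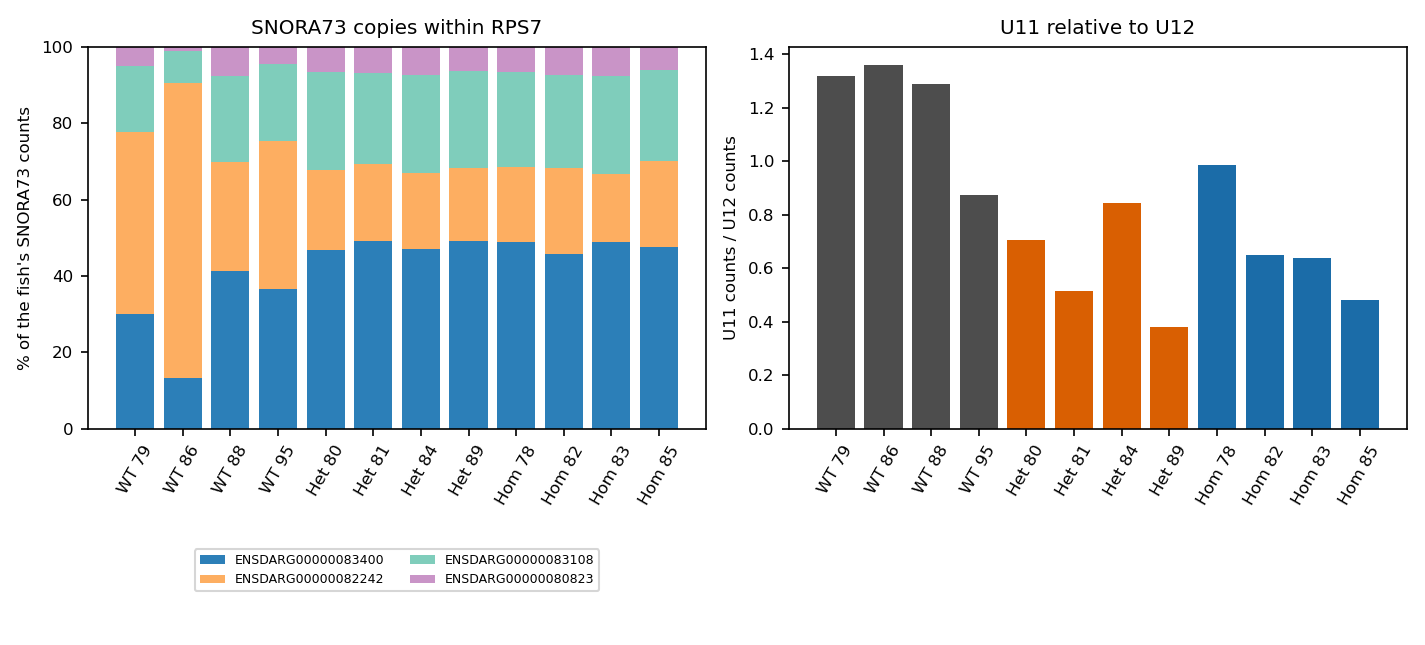
Left, the share of SNORA73 counts of each fish that came from each of the 4 copies within RPS7. Right, U11 counts divided by U12 counts in each fish, coloured by genotype. ENSDARG00000082242 takes 28.5% to 77.3% in WT fish and 17.9% to 22.6% in mutants, and the U11 to U12 ratio is highest in WT 79, 86 and 88.

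SNORA23, within *IPO7*, had 6.52, 1.16, 22.5 and 8.29 CPM in WT, 24.5, 22.2, 38.0 and 13.98 in Het, and 13.3, 9.83, 12.4 and 20.2 in Hom, and was not called (logFC 0.95, FDR = 0.158). WT 88 exceeded all Hom fish for this RNA.

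Of the 4 box C/D snoRNAs, 2 rose (1.53% of all genes were called higher). SNORD97 (within *EIF4G2*, chromosome 18) had 0.102, 0.233, 1.13 and 0.518 CPM in WT, 2.51, 2.60, 3.53 and 2.23 in Het, and 2.82, 1.15, 2.22 and 1.48 in Hom, with no overlap (logFC 2.16 ± 0.45, SE, FDR = 0.00366). In counts this was 1 to 13 in WT and 12 to 32 in mutants, and it passed 1.5 CPM in no WT fish. SNORD15 ENSDARG00000111557 (within *rps3*, chromosome 18) had 3.77, 3.65, 11.3 and 9.23 CPM in WT, 18.01, 22.1, 39.4 and 16.7 in Het, and 14.3, 14.3, 28.5 and 16.8 in Hom, again with no overlap (logFC 1.59 ± 0.36, SE, FDR = 0.00525).

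The other SNORD15 copy in *rps3*, ENSDARG00000113885, had 0 counts in 4 fish, from WT and Hom. It had 13, 0, 31 and 0 counts in WT, 49, 61, 75 and 53 in Het, and 25, 0, 0 and 42 in Hom, and was not called (logFC 1.59, FDR = 0.22). SNORD21, within *RPL5*, had 5.80, 0.0776, 8.54 and 9.49 CPM in WT and 8.02 to 24.2 in mutants (logFC 1.16, FDR = 0.101). Here 1 fish set the WT spread, since WT 86 had 1 count and the other WT fish 57 to 110.

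Among the 15 genes without a symbol, 3 rose for the mutant allele and all had a logFC above 0 (median 0.93). Of all genes, 1.53% were called higher and 51.9% had a logFC above 0. ENSDARG00000104420, within *KPNB1* on chromosome 19, had 0.407, 0.155, 1.04 and 0.863 CPM in WT, 3.62, 3.52, 4.41 and 2.94 in Het, and 1.75, 1.81, 2.61 and 2.95 in Hom (logFC 2.20 ± 0.37, SE, FDR = 0.00138). ENSDARG00000082493, within *puf60a* on chromosome 2, had 3.06, 0.853, 4.36 and 2.85 in WT, 10.8, 7.88, 12.8 and 9.62 in Het, and 6.62, 7.06, 8.22 and 6.16 in Hom (logFC 1.62 ± 0.30, SE, FDR = 0.00205). Neither overlapped between WT and mutants. ENSDARG00000081931, which lies antisense to *CTPS1* on chromosome 19, had 1.32, 1.24, 0.610 and 1.47 in WT and 1.34 to 3.71 in mutants (logFC 1.22 ± 0.29, SE, FDR = 0.00697), with Hom 82 inside the WT range. It and ENSDARG00000104420 passed 1.5 CPM in no WT fish.

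A further 2 of these genes rose in Het (2.09% of all genes) and were not called for the mutant allele or in Hom. ENSDARG00000084543, within *PABIR1*, had 9.78, 4.73, 15.8 and 10.53 CPM in WT, 20.5, 22.2, 27.1 and 19.9 in Het, and 17.9, 15.3, 17.8 and 16.5 in Hom (Het logFC 1.14, FDR = 0.00668). ENSDARG00000084532, within *TPT1*, had 2.04, 0.465, 2.79 and 1.12 in WT, 4.27, 5.19, 6.72 and 4.99 in Het, and 2.73, 2.96, 3.29 and 3.04 in Hom (Het logFC 1.73, FDR = 0.00553). The most abundant of the group, ENSDARG00000083760 and ENSDARG00000103474, both lie in *ATG16L1* on chromosome 15 and had 325 to 662 and 180 to 323 CPM in WT, with mutant ranges of 332 to 1310 and 242 to 854. They were not called (logFC 0.52 and 0.84). ENSDARG00000083325 had 267, 362, 6 and 288 counts in Hom, against 117 to 1082 in WT and Het fish. Few of its fragments were thus counted in Hom 83, and the cause was not tested.

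The 2 genes with clone names had logFC of opposite sign, and neither was called. si:ch211-239i23.4 on chromosome 20 had 6.52, 9.07, 6.71 and 6.82 CPM in WT, 4.46, 3.799, 4.08 and 3.92 in Het, and 5.06, 3.24, 4.45 and 4.25 in Hom. It was lower in every mutant fish than in every WT fish, with a logFC of -0.81 ± 0.15 (SE, FDR = 0.00194), and was not called because of the limit of 1 on logFC. It overlaps the start of *VSNL1* on the same strand, so its counts are uncertain. si:dkey-267p21.2 had 0.917 to 2.44 CPM in WT and 2.48 to 3.92 in mutants (logFC 0.85, FDR = 0.0239).

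Over the 50 genes, all 8 mutant fish lay above all 4 WT fish for 10 and below them for 1 (7.66% and 8.76% of all genes tested). Of these 10, 7 are among the 28 genes that became members with the help of mutant fish. Among the 22 genes over 1.5 CPM in all 4 WT fish, it was 3 above and 1 below. Calls were found at the shorter lengths (2.53% of all genes were called). Under 150 bp, 7 of 15 genes were called. From 150 to 249 bp it was 3 of 15, and from 250 to 299 bp 0 of 20. Of the 10 called genes, 7 became members with the help of mutant fish, so these counts by length are descriptions only. Of the 20 genes from 250 to 299 bp, 7 were higher at an FDR under 0.05, against 16.8% of all genes (34.1% in either direction). Of these 20, 13 are the SRP RNA genes. Outside the 50, the 104 tested single-exon genes of 300 to under 1000 bp had a median logFC of 0.36, with 5 called higher and 0 lower (4.81% called). Of the 68 tested genes under 500 bp with several exons, 10 were called higher and 2 lower (17.6%), and 25.0% were called in Het. Their share of calls was thus near that of the 50 (20%, and 22% in Het). Their median logFC for the mutant allele was 0.126, with 39 of 68 above 0, against 1.14 and 46 of 50.

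For Hom against Het, 0 of the 50 genes and 0 of all genes passed an FDR of 0.05 in the edgeR quasi-likelihood test (DESeq2 also called 0 of the 50), and 7 of the 50 had an unadjusted p under 0.05, against 3.79% of all genes. The logFC was below 0 for 47 of the 50 (median -0.51), whereas 49.4% of all genes were above 0. Without Het 84 it was above 0 for 9 of the 49 genes tested. With TMM factors from the 50 genes alone it was above 0 for 23 of 50, and with a correction for length for 24 of 50 (medians of -0.03 in both). The values of the 50 helped to set both of these scalings.

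Host genes were read for the 22 members that lie in introns on the same strand. The 16 tested host genes had a median logFC of 0.07 for the mutant allele, and none was called, although *RPL10* was called in Het (logFC 1.21, FDR = 0.00705). *RPL10*, a protein of the large ribosomal subunit, had 65.7, 43.1, 104 and 70.6 CPM in WT, 142, 136, 261 and 116 in Het, and 103, 101, 134 and 144 in Hom (logFC 0.99 ± 0.25, SE, FDR = 0.00885), against 3.33 for SNORA70. *RPS7*, a protein of the small subunit, had 83.7 to 97.5 in WT and 122 to 205 in mutants without overlap (logFC 0.72 ± 0.12, SE, FDR = 0.00124), against 1.73 and 1.62 for its called SNORA73 copies. *EIF4G2*, which holds SNORD97, had a logFC of -0.10 (FDR = 0.317), and *KPNB1* and *puf60a* had 0.04 and -0.12. Members that rose thus lay in hosts with logFC on either side of 0.

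**Figure D5:**
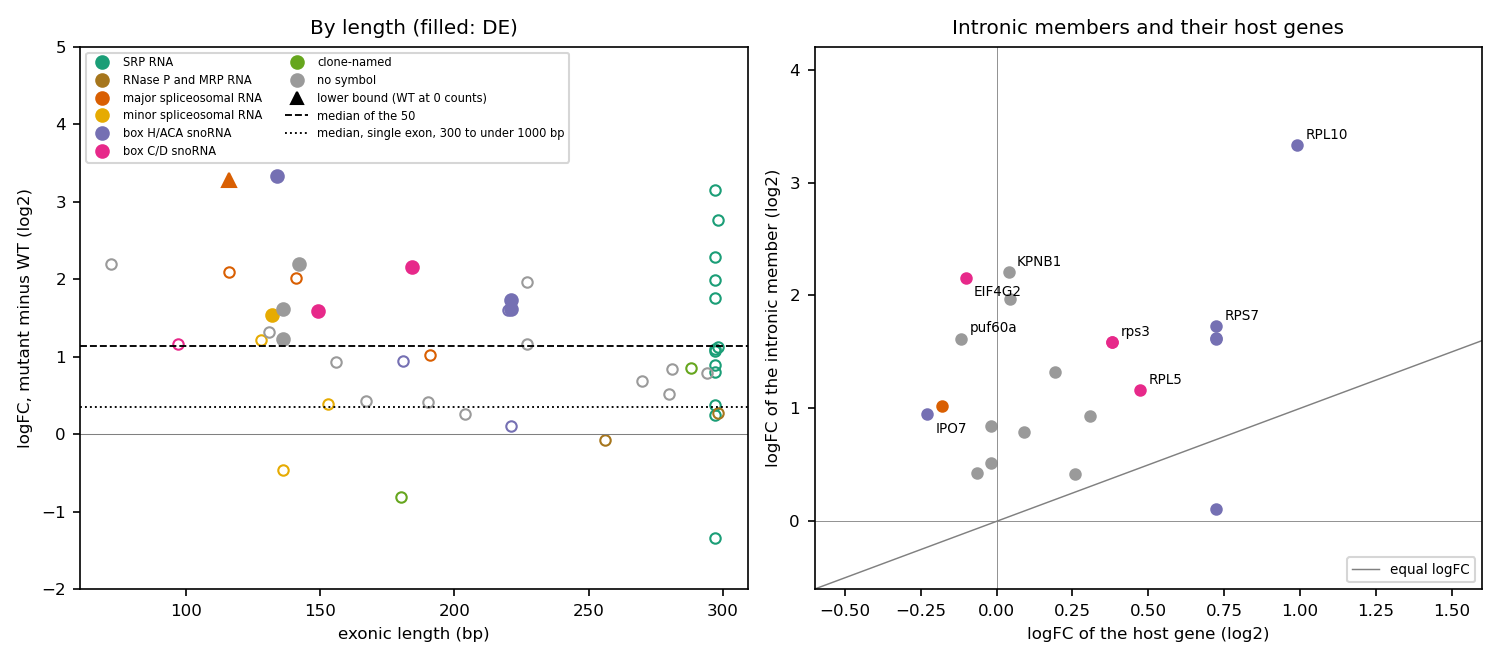
Left, logFC for the mutant allele against exonic length for the 50 genes, filled where DE, with a triangle at the lower bound of the U5 copy ENSDARG00000109284 and lines at the medians of the 50 (1.14) and of single-exon genes of 300 to under 1000 bp (0.36). Right, logFC of members in introns against that of their tested host gene. All but the SNORA73 copy ENSDARG00000082242 lie above the line of equal logFC.

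The calls depended on the scaling. When TMM factors were taken from the 50 genes alone, which moves the median of all genes to -0.98, the median of the 50 fell to 0.31 and the logFC remained above 0 for 32. On this scale SNORA70 (logFC 2.67), the U5 copy ENSDARG00000109284 (called with WT at 0), U4 (1.43), the other U5 copy (1.52), Metazoa_SRP ENSDARG00000105097 (1.90) and ENSDARG00000114626 (2.16), ENSDARG00000081580 (1.53) and ENSDARG00000109437 (1.48) were called higher than in WT, and U11 (-1.61), SNORA73 ENSDARG00000082242 (-1.02), si:ch211-239i23.4 (-1.87) and Metazoa_SRP ENSDARG00000112374 (-2.40) lower. This scaling called 45.3% of all genes, 7242 of them lower, so a lower call sets a member apart from the rest of the 50 and not from genes at large. SNORA73 ENSDARG00000082242 lay near the median of all genes. With a correction for length within each fish, the median of the 50 was 0.13 and 31 had a logFC above 0, while the median of all genes was -0.01 and 2.30% of them were called (150 higher and 218 lower, against 245 and 161 with TMM alone). SNORA70 was then the only member called higher (logFC 2.13, FDR = 0.000583), and U11 (-2.08), U12 (-1.03), SNORA73 ENSDARG00000082242 (-1.005) and si:ch211-239i23.4 (-2.08) were called lower. The correction for length was fitted over all genes tested, the 50 among them, so a lower call is relative to genes of like length. SNORA70 is called under each of these 3 scalings. U11, SNORA73 ENSDARG00000082242 and si:ch211-239i23.4, which TMM over all genes did not call, are called lower under the other 2. Those 2 are not independent checks, since the values of the 50 helped to set both. The remaining 8 members called higher, other than SNORA70 and U5, were not called under either of these 2 scalings.

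Calls also depended on single fish. The count of 10 for the mutant allele became 3 without WT 79, 4 without WT 86, 5 without WT 95, 6 without Hom 83 and 18 without WT 88. Over all genes, the 406 calls became 219, 161, 442, 336 and 680 in these fits, in the same order. The count of 11 for Het became 2 without WT 79, 7 without WT 86, 4 without Het 80, 3 without Het 81, 5 without Het 84 and 19 without WT 88. Over all genes, the 508 calls for Het became 137, 190, 311, 234, 370 and 815 in these fits, in the same order. SNORA70, ENSDARG00000082493 and ENSDARG00000104420 were called for the mutant allele in all 12 fits with a fish left out. They passed 1.5 CPM in 1, 3 and 0 WT fish, in this order, and met the limit of 4 fish only through mutant fish. These fits are therefore not independent of the choice. Their WT counts were 9, 3, 32 and 10, then 30, 11, 50 and 33, then 4, 2, 12 and 10. For ENSDARG00000104420, WT 86 lay under the floor of 3 counts. Both SNORD97 and SNORD15 ENSDARG00000111557 were called in 10 of the 12 fits, rnu4atacb in 9, SNORA73 ENSDARG00000083400 in 8 and ENSDARG00000083108 in 7. ENSDARG00000081931 was called in only 3, and U5 ENSDARG00000109284 in 2 of the 8 in which it was tested. In Het, ENSDARG00000084532 was called in 6 and ENSDARG00000084543 in 3 of the 12. For Hom, no member was called without WT 79, WT 86, Hom 78, Hom 83 or Hom 85, 2 were called without Het 84 and 12 without WT 88, and SNORA70 was called in 7 of the 12 fits. Over all genes, the 178 calls for Hom became 20, 29, 36, 30, 11, 206 and 424 in the fits just named, in the same order.

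Proteins that work with these RNAs were read from a list of 103 symbols, 95 of which matched the table and 93 of which were tested. Of these, 2 rose and 2 fell for the mutant allele (4.3% of the list and 2.53% of all genes called), and the median logFC was -0.01. In Het, 7 rose and 2 fell (9.68% of the list and 3.17% of all genes called). The Sm proteins, which form a ring on the spliceosomal RNAs, had a logFC above 0 in 6 of 6, and SNRPG rose, with 3.39 ± 0.87 CPM in WT, 8.16 ± 0.68 in Het and 6.85 ± 0.65 in Hom (SD, n = 4 each, logFC 1.14, FDR = 0.000741). The LSm ring of U6 also had 6 of 6 above 0 (51.9% of all genes), and LSM7 rose (logFC 1.28, FDR = 0.000586). Both groups are short, with median exonic lengths of 684 bp (Sm) and 903.5 bp (LSm), against 2642 bp for all genes tested. The part of length in their logFC was not tested.

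The 2 that fell belong to the minor spliceosome, of whose 7 listed proteins 5 had a logFC below 0 (7700 of all 16021 genes). SNRNP35, a protein of the U11 particle, had 12.3 ± 6.88 CPM in WT, 4.10 ± 0.26 in Het and 3.70 ± 0.73 in Hom (SD, n = 4 each, logFC -1.65, FDR = 0.00141). PDCD7, another U11 protein, had 50.8 ± 16.6 in WT, 24.1 ± 1.53 in Het and 26.7 ± 2.32 in Hom (logFC -1.002, FDR = 0.00113). Another protein of that particle, zmat5, had a logFC of 0.95 and was not called (FDR = 0.0023), but it was called higher in Het (logFC 1.06, FDR = 0.00353). None of the 4 core proteins of box H/ACA RNAs, the 3 tested of box C/D RNAs or the 6 SRP proteins was called for the mutant allele, but GAR1, a core protein of box H/ACA RNAs, rose in Het (logFC 1.103, FDR = 0.00452). Factors that assemble snoRNA particles had a logFC below 0 in 7 of 8 (7700 of all 16021 genes), none of them called.

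Values just inside and outside the limits of the choice were as follows. The longest members, rn7sl1, RNaseP_nuc and Metazoa_SRP ENSDARG00000105097, are 298 bp long, whereas rpph1 (303 bp, mean of 1021 CPM of all counts), an RNA of RNase P, and rn7sk (322 bp, 11360 CPM), the 7SK RNA, fell outside. U5 ENSDARG00000109284 passed 1.5 CPM in exactly 4 fish, and the U1 model ENSDARG00000083063, with 2 fish, did not pass.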

How the data were processed

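The authors trimmed paired 150 bp reads with cutadapt 1.14, aligned them to GRCz11 with STAR 2.7.0d and counted fragments with featureCounts (Subread 1.5.2), keeping those of mapping quality 10 or more, placed entirely in exons and on the reverse strand. Libraries were made from total RNA depleted of rRNA with mammalian sequences. The authors reported much rRNA left over, in amounts that varied between samples, and suspected GC bias. They normalized for GC content and length. They also questioned their ribosomal result, because differential expression correlated with rRNA content. The main fit here has no term for GC content or length. The deposited values are counts per gene without normalization, and the deposited exonic lengths were also used. Genotypes came from the labels.

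Genes over 1.5 CPM in at least 4 fish were kept and 2 mitochondrial rRNA genes removed, leaving 16021. Counts were TMM-scaled and tested with the quasi-likelihood test of edgeR 4.0.16 (R 4.3.3) in 1 model of 3 genotypes, with FDR by Benjamini-Hochberg over all genes. For Hom against Het the threshold was an FDR of 0.05. Alternatives were DESeq2 1.42.0, the likelihood-ratio test of edgeR, other scalings, a spline of level on length with 5 degrees of freedom as an offset, other filters and leaving out each fish. Leaving out rn7sl1 was added after seeing the data. Floors are 3 counts per library (0.176 to 0.253 CPM of all counts, and a WT mean of 0.265 CPM on the TMM scale used for the U5 bound) and intervals cover counting error only. Symbols came from an identifier table, which named 35 of the 50. Sequences are not given here. Named were all members called, the 10 most abundant, those with a family symbol, those near the limits and the host genes of called members. Members and lists were chosen with earlier results of these data known.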

Additional observations from a re-analysis of the deposited data

Results flagged for a closer look

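Of 149 groups of 4 fish with a value above 0, 9 held a fish whose gap to its nearest neighbour passed the 95% critical value of Dixon's test. Chance gives about 1 in 20 for independent groups of normally spread values. These groups share the same 12 fish and hold CPM that were not logged, so the count is a description only. Het 84 accounted for 4 of them. It had 1970 CPM of Metazoa_SRP ENSDARG00000112225 (the next Het fish 464), 24.3 of SNORD21 (next 14.2) and 7.72 of ENSDARG00000081580 (next 3.83), and the lowest Het level, 1.1, of Metazoa_SRP ENSDARG00000114837 (next 2.87). Hom 83 had 130 CPM of RNaseP_nuc (next 70.0) and 11.5 of rnu4atacb (next 6.77). Among WT fish, WT 86 had 9.07 CPM of si:ch211-239i23.4 (next 6.82), WT 88 had 7.14 of ENSDARG00000109437 (next 1.29), and WT 79 had 1.73 of Metazoa_SRP ENSDARG00000114626, of which the other 3 WT fish had 0. That last group would have passed at any value above 0 in WT 79.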

How the results depend on the processing

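No paired analysis was possible because each fish number belongs to a single genotype. For the mutant allele, Het, Hom and Hom against Het, 10, 11, 1 and 0 members were called, all of them higher. DESeq2 called 17, 19, 6 and 0, the likelihood-ratio test 18, 21, 6 and 0, and at least 10 counts in every fish (26 members tested) 5, 6, 0 and 0. The length offset called 5, 3, 3 and 0, scaling over the members alone called 5 for Hom, and leaving out rn7sl1 called 2 for Hom. Leaving out a fish gave 3 to 18, 2 to 19, 0 to 12 and 0 to 0. Over all genes, leaving out a fish gave 161 to 680, 137 to 815, 11 to 424 and 0 to 0. The causes were not tested. Over all genes, 406, 508, 178 and 0 were called, against 1132, 981, 525 and 9 by DESeq2. The likelihood-ratio test called 966, 870, 454 and 9 of all genes, and the length offset 368, 416, 202 and 0. With scaling over the members alone it was 7259, 7820, 912 and 71.

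Of the logFC for the mutant allele, 14 of 50 changed sign with scaling over the members alone, which were U12 (-0.67), SNORA73 ENSDARG00000082242 (-1.02), RNaseP_nuc (-0.82), rn7sl1-5 (-0.068), Metazoa_SRP ENSDARG00000112225 (-0.79), ENSDARG00000113506 (-0.41) and ENSDARG00000114737 (-0.12), and ENSDARG00000083325 (-0.014), ENSDARG00000083699 (-0.60), ENSDARG00000083738 (-0.29), ENSDARG00000083760 (-0.70), ENSDARG00000085786 (-0.53), ENSDARG00000103474 (-0.33) and ENSDARG00000112868 (-0.77). With the length offset 15 did, which were U12 (-1.03), rnu6ataca (-0.17), SNORA73 ENSDARG00000082242 (-1.005), SNORD21 (-0.33), RNaseP_nuc (-0.55), Metazoa_SRP ENSDARG00000112225 (-0.55) and ENSDARG00000113506 (-0.32), and ENSDARG00000081931 (-0.28), ENSDARG00000083699 (-0.72), ENSDARG00000083738 (-0.15), ENSDARG00000083760 (-0.42), ENSDARG00000084543 (-0.23), ENSDARG00000085786 (-0.78), ENSDARG00000103474 (-0.065) and ENSDARG00000112868 (-0.84). Over the fits without a fish, logFC ran from -0.33 to 0.37 for rmrp, -0.057 to 0.22 for SNORA73 ENSDARG00000082242, -0.00406 to 0.53 for RNaseP_nuc, -0.21 to 0.54 for Metazoa_SRP ENSDARG00000112225 and -0.032 to 0.59 for ENSDARG00000113506. The other alternatives, namely DESeq2, the likelihood-ratio test, upper-quartile scaling, mitochondrial genes left out, both filters and rn7sl1 left out, changed no sign. Genes at 1 to 20 counts per fish limit what these depths can show.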

Other observations

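Most gene models of this kind had no counted fragment. Near-identical copies can lose reads to the limit on mapping quality, so a count of 0 does not show that a model gave no RNA. Of the 2782 that met the rule on structure and position, 2090 are 100 to 149 bp long, of which 13 became members, against 20 of the 94 models of 250 to 299 bp. The 5S_rRNA family has 1844 such models, 32 of which had counts, with 38 counts in all. U1 has 14 models, none of which passed the limit on CPM, and 284 counts in all over the 12 fish, whereas the 10 models of U2 had 61169. SNORA62 (155 counts over 4 models) and SNORA81 (92 counts) were also seen below the limit.

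The members on chromosome 1 lie 11.06 Mb (rmrp) and 16.34 Mb (ENSDARG00000084532) from *psen2*. The spread of the 50 between fish was wide, with a median biological coefficient of variation of 40.7% against 16.3% for all genes tested.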
